A study of Mus musculus with 24 samples.

Results

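Cd146+ cells were compared with Cd31+ cells after both had been transduced with the same P16 overexpression lentivirus. The 6 libraries labelled as P16-transduced, 3 of Cd146+ cells (replicates 1, 3 and 5) and 3 of Cd31+ cells (replicates 2, 3 and 5), were taken from the 24 RNA sequencing libraries of the series by their labels. All 6 came from liver cells of C57BL/6 mice, described in the methods as 3-month-old females, which were digested out with collagenase, captured with magnetic beads against Cd31 or Cd146 and cultured. Cd31 beads were meant to capture the general endothelial population and Cd146 beads the sinusoidal endothelial cells. Both groups carried a P16 cDNA fused to GFP in a lentiviral vector, and RNA was taken 1 week after transduction. The comparison therefore asks how the populations differ while both carry the vector, and not what the vector did. Libraries with the empty vector, the non-coding hairpin (nc shRNA) and the P16 hairpin (P16 shRNA) are used only to show where the P16 libraries differ from them. The labels and methods do not say that the 3 libraries of a group came from separate animals or cultures, so the p-values measure only the spread between these libraries.

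P16Ink4a binds the cyclin-dependent kinases CDK4 and CDK6 and keeps the retinoblastoma protein in its active form, in which E2F factors and, further down, the genes of DNA replication and mitosis are held back. It is a widely used marker of cellular senescence, a lasting arrest of division that is often accompanied by the release of cytokines, proteases and matrix proteins. Sinusoidal endothelial cells line the liver's capillaries, have open pores and little basement membrane, and take up waste molecules through scavenger receptors such as stabilins.

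Each library held between 17817940 and 21878981 counts over 56748 genes, and a count of 3, used as the floor, corresponded to 0.137 to 0.168 CPM, the unit used below for counts scaled to a common library size. The labelled cell types were checked against their markers. Pecam1, the gene of Cd31, was at 143, 160 and 277 CPM in the Cd31+ libraries and at 244, 6.65 and 272 CPM in the Cd146+ libraries. Mcam, the gene of Cd146, was at 145, 148 and 386 CPM in Cd31+ cells and at 141, 10.2 and 297 CPM in Cd146+ cells. Neither gene separated the populations, and both were low in Cd146+ replicate 3 alone. The junction gene Cdh5 was at 3.6 CPM in that library and between 69.7 and 363 CPM in the other 5. The scavenger receptor gene Stab1 ranged from 5.43 to 427 CPM without a split between the groups, and Stab2, Clec4g and Dnase1l3, which mark sinusoidal cells in the liver, were at or near 0 in all 6 libraries. The labels are kept below as names of the isolations, because these defining markers did not show a sinusoidal profile in the Cd146+ libraries.

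Genes of other cell types were also present. Col1a1, the fibroblast collagen, was at 9719, 12622 and 6794 CPM in Cd31+ cells and at 4250, 10267 and 9123 CPM in Cd146+ cells. The summed level of 24 macrophage markers was 137, 75.5 and 265 CPM in Cd31+ cells and 96.7, 47.7 and 573 CPM in Cd146+ cells. All 19 macrophage markers that could be tested were higher on average in Cd146+ cells, none with an unadjusted p under 0.05, and their median log2 difference of 0.67 became -1.71 without Cd146+ replicate 5. The hepatocyte gene Alb was at 0 in 5 libraries and at 0.341 CPM in Cd146+ replicate 5. In RNA from a mixed culture, fewer cells of a type and less RNA per cell cannot be told apart. Xist, transcribed from the inactive X chromosome, was at 632 and 627 CPM in replicate 5 of the Cd31+ and the Cd146+ group, and at most 0.165 CPM in the other 4 libraries. These 4 held 51.3 to 116 CPM of the Y-linked gene Ddx3y, which the female mice of the methods would not have. The groups were balanced in this respect, with 1 such Xist library in each.

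**Figure D1:**
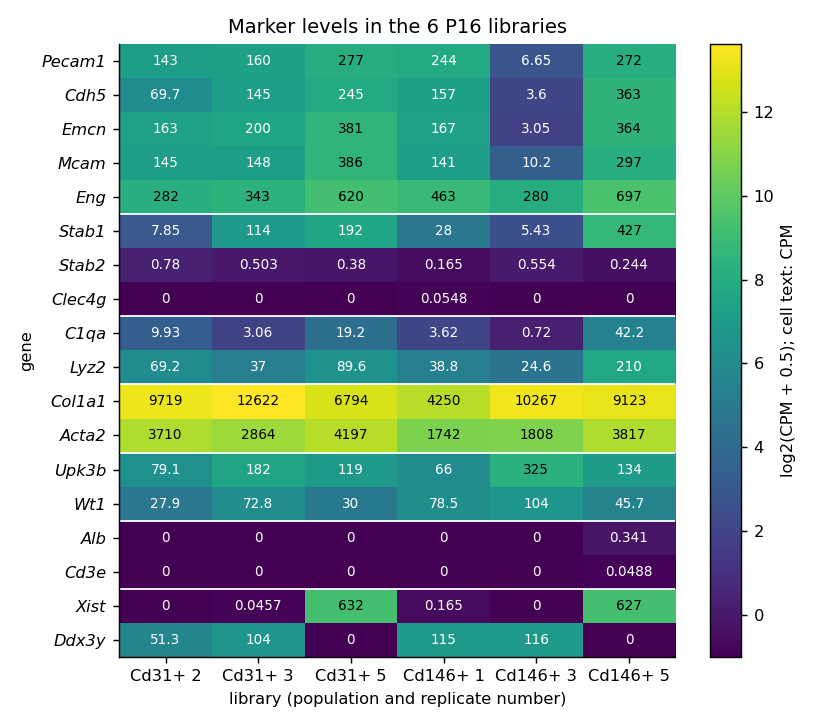
Heat map of marker genes (rows) in the 6 P16 libraries (columns, population and replicate number), coloured by log2(CPM + 0.5) with the CPM printed in each cell; white lines separate endothelial, sinusoidal, macrophage, mesenchymal, mesothelial, other and sex-linked markers. Cd146+ replicate 3 stands out by Pecam1, Cdh5, Emcn and Mcam of 3.05 to 10.2 CPM.

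Across all genes, the difference between the populations was small beside the spread of the libraries. Of 14480 genes tested, 287 (1.98%) were higher and 322 (2.22%) lower in Cd146+ cells with an unadjusted p under 0.05 (edgeR's quasi-likelihood test, two-sided). None (0%) had an adjusted p under 0.05 after Benjamini-Hochberg adjustment, and the smallest adjusted p was 0.607. The Wald test of DESeq2 on the same libraries gave 782 genes with an unadjusted and 40 with an adjusted p under 0.05, of which 23 were higher and 17 lower. In 563 genes (3.89%) all 3 Cd146+ libraries were above all 3 Cd31+ libraries, and in 768 genes (5.3%) all 3 were below. Together these were 9.19% of genes, and the unadjusted calls were 4.21%. With the population labels placed at random on the 6 libraries, a gene would have separate groups with a probability of 0.1. Neither total exceeded what random labels would give, 0.1 for separate groups and 0.05 for unadjusted calls. Gene by gene results below are therefore values with an unadjusted p, and every one of them missed the adjusted threshold of the quasi-likelihood test.

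The overexpressed locus was examined first. Cdkn2a encodes P16Ink4a and, from another first exon, p19Arf. In the coordinates of the deposited table it lies on chromosome 4 at 89192708 to 89212890 on the minus strand. The submitters' processing notes list the build mm9, and whether these coordinates are of that build was not checked. The level of Cdkn2a was 219, 326 and 136 CPM in Cd31+ cells and 820, 420 and 226 CPM in Cd146+ cells. The ranges overlap, with Cd146+ replicate 1 far above the other 5 libraries. The mean was 2.15-fold higher in Cd146+ cells (log2 difference 1.11, SE 0.524), with an unadjusted p of 0.0751 in edgeR's test and a p of 0.2 in the exact two-sided permutation test, whose smallest possible p with 3 against 3 libraries is 0.1. Leaving out 1 library gave log2 differences of 0.53, without Cd146+ replicate 1, to 1.46, without Cd31+ replicate 3. Both groups were above their empty vector controls by edgeR's test, but missed the adjusted threshold. The difference was 4.05-fold in Cd31+ cells (log2 2.02, SE 0.43, unadjusted p 0.00306, adjusted p 0.947). In Cd146+ cells it was 5.42-fold (log2 2.44, SE 0.50, unadjusted p 0.00273, adjusted p 0.986). The P16 construct was therefore visible in the libraries that carry its label, although gene counts cannot separate p16Ink4a from p19Arf, nor endogenous transcripts from those of the vector. The population difference in Cdkn2a was 0.70 with the empty vector, 1.29 with nc shRNA and 1.18 with P16 shRNA on the log2 scale.

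Of the other cyclin-dependent kinase inhibitors, Cdkn2b stood apart. This neighbour of Cdkn2a encodes p15Ink4b, a close relative that also inhibits CDK4 and CDK6. It was at 41.8, 65.1 and 90.3 CPM in Cd31+ cells and at 194, 140 and 120 CPM in Cd146+ cells, so the groups did not overlap. The mean was 2.30-fold higher in Cd146+ cells (log2 1.20, SE 0.318, unadjusted p 0.00702, adjusted p 0.992), with log2 differences of 0.46, 1.03 and 0.66 in the empty vector, nc shRNA and P16 shRNA libraries. Cdkn1a, which encodes p21, was at 502, 369 and 527 CPM in Cd31+ cells and at 399, 304 and 623 CPM in Cd146+ cells, a log2 difference of -0.07 (SE 0.299, unadjusted p 0.809). Cdkn2b was the only 1 of the 6 tested members of the 7-gene inhibitor list with an unadjusted p under 0.05.

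Genes lower in Cd146+ cells were led by Sh3tc2 and Col15a1. Sh3tc2, which encodes an adaptor of endosome recycling known from inherited neuropathy, was at 38.8, 33.7 and 32.2 CPM in Cd31+ cells and at 9.49, 12.4 and 11.8 CPM in Cd146+ cells. The mean was 3.11-fold lower in Cd146+ cells (log2 -1.64, SE 0.179), with the smallest unadjusted p of the comparison, 4.19e-05, and an adjusted p of 0.607. Leaving out any 1 library kept the log2 difference of Sh3tc2 between -1.72 and -1.51. It had the same direction with the empty vector (-1.14), nc shRNA (-1.77) and P16 shRNA (-1.38).

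Col15a1 encodes the core protein of collagen XV, a basement membrane collagen that yields the antiangiogenic fragment restin. It lies on chromosome 4 at 47208161 to 47313167. Its level was 574, 460 and 470 CPM in Cd31+ cells and 159, 98.2 and 147 CPM in Cd146+ cells, a 3.72-fold lower mean (log2 -1.90, SE 0.234, unadjusted p 9.04e-05, adjusted p 0.655). The lowest Cd31+ library was well above the highest Cd146+ library. The log2 difference of Col15a1 was -1.26, -1.18 and -1.25 under the other 3 constructs.

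Several surface and signalling genes had the same direction. Upk1b, a tetraspanin gene of urothelium and mesothelium, was at 417, 468 and 311 CPM in Cd31+ cells and at 57.3, 163 and 97.9 CPM in Cd146+ cells (log2 -1.91, SE 0.394, unadjusted p 0.00205). Itpr3, an endoplasmic calcium release channel, was at 170, 140 and 149 CPM against 76.9, 50 and 84.3 CPM (log2 -1.12, SE 0.224, unadjusted p 0.00163). Cdh3, which encodes P-cadherin, was at 189, 125 and 114 CPM against 40.7, 67.6 and 70.8 CPM (log2 -1.25, SE 0.29, unadjusted p 0.00358). The groups of all 3 genes were separate, but separate groups were a condition for choosing Upk1b and Itpr3. Of all genes, 5.3% were separate in this direction. Upk1b (-2.24, -1.60 and -0.86), Itpr3 (-0.44, -1.20 and -0.80) and Cdh3 (-1.36, -1.41 and -0.91) were also lower in Cd146+ cells with the empty vector, nc shRNA and P16 shRNA. Cdh3 was picked after its values were seen. The transcription factor genes Sox11 (log2 -1.32, SE 0.28), Sox9 (-1.46, SE 0.429) and Snai2 (-1.25, SE 0.434) had unadjusted p-values of 0.0022, 0.0116 and 0.0246, and Snai2 was at -0.81 (unadjusted p 0.0884) without Cd31+ replicate 2. Sox9 and Snai2 were higher in Cd146+ cells with the empty vector (2.63 and 0.26), so this direction was not shared by all constructs. Other genes among the 10 lower ones with the smallest p were Apol9b (-3.36), Ly6c1 (-2.34), Fam171b (-1.21), Phlpp1 (-0.74) and the chemerin receptor gene Cmklr1 (-2.64, with at most 3.33 CPM in any library).

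Fn1, the gene of the matrix protein fibronectin, was highly expressed in all libraries. It was at 20734, 19858 and 21339 CPM in Cd31+ cells and at 17871, 9791 and 15257 CPM in Cd146+ cells, without overlap, but its log2 difference of -0.53 (SE 0.301) had an unadjusted p of 0.123. Cd146+ replicate 3, the library low in endothelial markers, held the lowest value.

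Genes higher in Cd146+ cells included a lymphangiogenic growth factor and a cytokine. Vegfc, a ligand of the receptors VEGFR3 and VEGFR2, lies on chromosome 8 at 54530641 to 54640131. It was at 4.99, 7.45 and 6.41 CPM in Cd31+ cells and at 27.1, 15.8 and 17.2 CPM in Cd146+ cells. The mean was 3.19-fold higher in Cd146+ cells (log2 1.67, SE 0.287, unadjusted p 0.000674, adjusted p 0.992), and without any 1 library the log2 difference stayed between 1.41 and 1.82. Vegfc was also higher with the empty vector (1.20) and nc shRNA (1.19), and was at 0.14 with P16 shRNA. By contrast Vegfa, the main angiogenic factor, was at 285, 294 and 202 CPM against 324, 184 and 220 CPM, a log2 difference of -0.10 (unadjusted p 0.712).

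Il6, a cytokine of inflammation and of the senescence-associated secretion, was at 6.76, 9.73 and 10.7 CPM in Cd31+ cells and at 21.4, 17.1 and 28.9 CPM in Cd146+ cells. The mean was 2.47-fold higher in Cd146+ cells (log2 1.31, SE 0.278, unadjusted p 0.00228), and the log2 difference stayed between 1.08 and 1.47 when any 1 library was left out. Il6 had the same direction with the empty vector (1.16), nc shRNA (0.89) and P16 shRNA (0.80). F3, the tissue factor that starts coagulation, was at 137, 265 and 172 CPM against 692, 427 and 436 CPM (log2 1.44, SE 0.319, unadjusted p 0.00284). F3 differed by 0.08, 0.46 and 0.80 under the other 3 constructs. Mylk, the myosin light chain kinase gene, was at 23.2, 67.4 and 63.4 CPM against 156, 241 and 176 CPM (log2 1.89, SE 0.419, unadjusted p 0.00308), with 0.58, 2.13 and 0.89 under the others. All 3 genes were separate between the populations in the P16 libraries.

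Svep1, a large secreted adhesion protein needed for lymphatic remodelling, was at 33.8, 150 and 85.2 CPM in Cd31+ cells and at 472, 466 and 288 CPM in Cd146+ cells (log2 2.19, SE 0.537, unadjusted p 0.00541). Its difference was 2.65, 2.13 and 1.57 under the empty vector, nc shRNA and P16 shRNA. C3, the central complement component, was at 15.5, 51.9 and 37 CPM against 127, 654 and 143 CPM (log2 3.15, SE 0.805, unadjusted p 0.00686), and its log2 difference was 1.95 without Cd146+ replicate 3. F3, Svep1, C3 and Gpnmb (log2 1.08, unadjusted p 0.00257), a membrane glycoprotein gene linked to senescent endothelium, were picked after their values were seen. Wfdc1, a secreted protease inhibitor, was low in all libraries but higher in Cd146+ cells, at 0.104, 0.228 and 0.489 CPM against 5.1, 3.1 and 1.41 CPM (log2 3.53, SE 0.729, unadjusted p 0.00196).

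**Figure D2:**
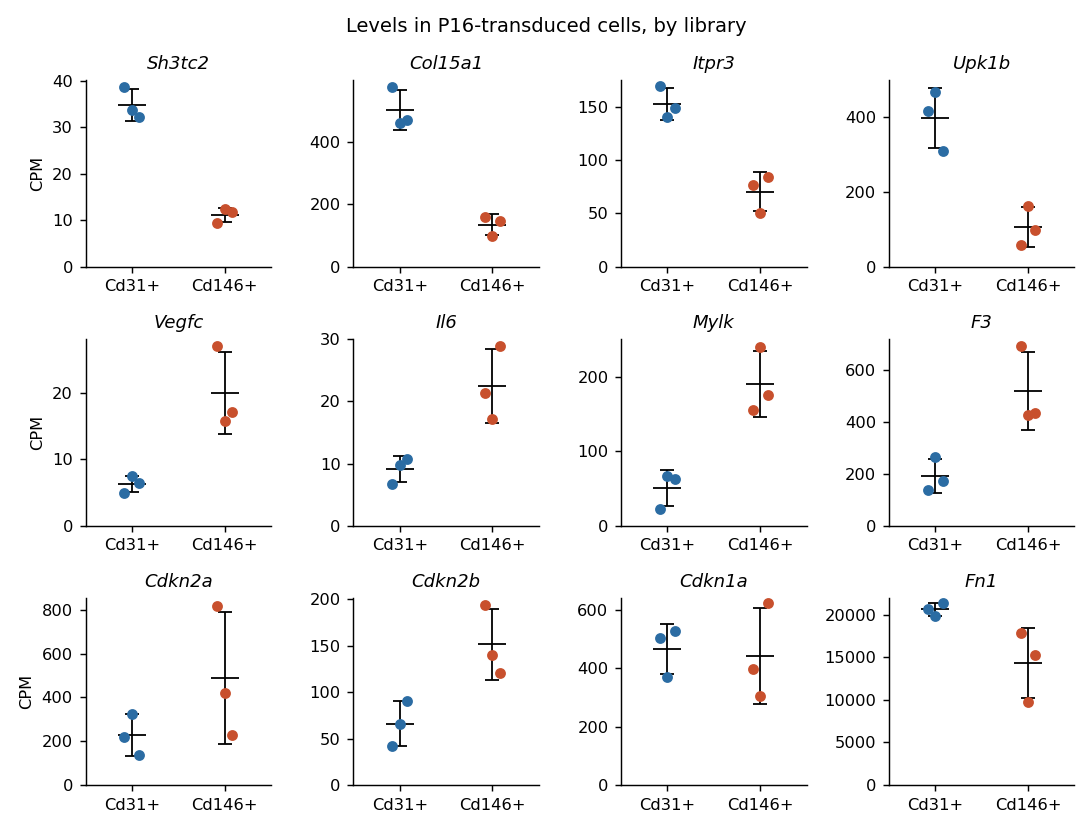
Levels of 12 genes in CPM (y axes, linear, from 0) in the 3 Cd31+ and the 3 Cd146+ libraries with P16 (points), with the mean (wide bar) and SD (whiskers). Sh3tc2, Col15a1, Itpr3, Upk1b, Vegfc, Il6, Mylk, F3, Cdkn2b and Fn1 do not overlap between the populations, while Cdkn2a and Cdkn1a do. Sh3tc2, Col15a1, Itpr3, Upk1b and Vegfc were chosen from genes without overlap.

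Genes of cell division were lower in Cd146+ cells. Of 74 mitosis genes, 73 had a negative log2 difference and 18 had an unadjusted p under 0.05, against 2.22% of all genes tested; the median was -0.63, against 0.01 over all genes. In 46 of the 74 all Cd146+ libraries were below all Cd31+ libraries, against 5.3% of all genes. None passed the adjusted threshold. Of the members named below, Kif23, Mki67, Top2a and Cdc20 were picked after their values were seen. Dlgap5, a spindle assembly factor, was at 24.8, 25.5 and 22.4 CPM in Cd31+ cells and at 8.72, 16.3 and 15.3 CPM in Cd146+ cells (log2 -0.85, SE 0.261, unadjusted p 0.0141). Sgo1, the protector of centromeric cohesion, was at 11.6, 13.1 and 9.66 CPM against 2.69, 6.42 and 6.78 CPM (log2 -1.11, SE 0.377, unadjusted p 0.0219). Kif23, a kinesin of cytokinesis, was at 27.4, 26.4 and 28.3 CPM against 7.84, 13.7 and 21 CPM (log2 -0.95, SE 0.34, unadjusted p 0.0276). In each of these genes the Cd31+ libraries lay close together, and the Cd146+ libraries were spread below them, with replicate 1 lowest. When each of the 6 libraries was left out in turn, the unadjusted p stayed under 0.05 in 6 of 6 fits for Dlgap5, 4 for Sgo1 and 2 for Kif23.

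The proliferation marker Mki67 was at 78.5, 85.1 and 86.4 CPM in Cd31+ cells and at 20.3, 46.5 and 62.3 CPM in Cd146+ cells (log2 -0.95, SE 0.378, unadjusted p 0.0408). Top2a, the DNA topoisomerase of dividing cells, was at 119, 133 and 109 CPM against 37.7, 82.4 and 91.5 CPM (log2 -0.77, SE 0.324, unadjusted p 0.0495). Foxm1, the transcription factor that drives many mitotic genes, was at 29.6, 41.9 and 36.4 CPM against 14.6, 24.7 and 25.6 CPM (log2 -0.73, SE 0.258, unadjusted p 0.0256). Without Cd146+ replicate 1 the log2 differences were -0.59 for Mki67 and -0.45 for Top2a, and the unadjusted p stayed under 0.05 in 2 of 6 such fits for each of these and in 3 for Foxm1. Foxm1 was the only 1 of 31 genes of the RB-E2F list with an unadjusted p under 0.05, a count near the 2.22% of all genes called lower. In that list 21 of the 31 were lower (median -0.24). Of 42 S phase genes 40 were lower (median -0.51), 6 of them with an unadjusted p under 0.05, against 2.22% of all genes, among them the replication genes Pole (-0.74), Prim1 (-0.68), Lig1 (-0.86) and Dtl (-1.03).

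The mean level of the mitosis list, as log2(CPM + 0.5), was 4.46, 4.57 and 4.45 in Cd31+ cells and 3.17, 4.12 and 4.21 in Cd146+ cells. Cd146+ replicate 1, the library with the highest Cdkn2a level, held the lowest value. In Cd31+ cells replicate 3, which had the most Cdkn2a, held the highest. Scaled over all 24 libraries, the list was also low in Cd146+ nc shRNA replicate 1, at 3.73 against 4.44 and 4.68 in replicates 3 and 5. Whether the list level followed Cdkn2a was not tested. Without Cd146+ P16 replicate 1 the median of the list was -0.33 with 8 genes at an unadjusted p under 0.05. Over all 6 ways of leaving out a library the median lay between -0.81 and -0.33. The number of such genes lay between 3 and 30, while the share of all genes at that threshold lay between 1.97% and 8.65% in these fits. Under the other constructs the median was -0.55 with nc shRNA, with 71 of 74 genes lower and 13 at an unadjusted p under 0.05, -0.14 with the empty vector and -0.05 with P16 shRNA.

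Mitotic promoters are known for a short element, the cell cycle genes homology region, bound by the DREAM and MuvB complexes. Its core TTTGAA was searched on both strands of the RefSeq windows from 250 bases before to 50 bases after the start site, and was present in 47 of 68 windows (69.1%) of the 62 mitosis genes with a window, against 1599 of 13427 windows (11.9%) of all tested genes and 17.9% of all windows. The E2F core GCGGGAA was in 5 of the 68 windows (7.35%), against 8.12% for all tested genes. A match is only a run of letters and was not used to choose the genes of the lists. It was a condition for the genes printed below, and Dlgap5 and Sgo1, which had a smaller p than Kif23, are not among them. The mitosis members with the smallest p whose windows hold the element are printed to show where it lies, on the strand of each gene, in GRCm38.p6, with the core in capitals (in Kif11 it lies on the opposite strand and reads TTCAAA). Besides Kif23 they are Cdca8 (log2 -0.99, unadjusted p 0.0332), of the chromosomal passenger complex, the spindle motor gene Kif11 (-0.61, unadjusted p 0.0352) and Cdc20 (-0.77, unadjusted p 0.0379), an activator of the anaphase promoting complex.
Kif23 (chr9:61946762-61946827, minus strand): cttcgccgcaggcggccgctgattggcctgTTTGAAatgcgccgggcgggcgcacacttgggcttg
Cdca8 (chr4:124936869-124936934, minus strand): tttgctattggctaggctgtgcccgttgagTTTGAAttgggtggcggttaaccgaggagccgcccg
Kif11 (chr19:37376333-37376398, plus strand): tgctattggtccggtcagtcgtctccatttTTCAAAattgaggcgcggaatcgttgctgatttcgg
Cdc20 (chr4:118437326-118437391, minus strand): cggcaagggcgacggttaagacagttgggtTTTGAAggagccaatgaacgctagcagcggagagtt

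Genes induced by interferon were lower in Cd146+ cells as well, with a wide spread among the Cd31+ libraries. Of 48 listed genes 43 could be tested, 40 had a negative log2 difference and 18 an unadjusted p under 0.05, against 2.22% of all genes; the median was -1.14. The groups were separate in 14 of them, against 5.3% of all genes. Of the members named below, Ifit1 was picked after its values were seen. Isg15, a ubiquitin-like modifier, was at 26.9, 8.23 and 118 CPM in Cd31+ cells and at 1.32, 6.81 and 6 CPM in Cd146+ cells (log2 -3.43, SE 1.09, unadjusted p 0.0178). Ifit1, which binds viral RNA lacking cap methylation, was at 24, 12.8 and 113 CPM against 3.56, 10.9 and 11.4 CPM (log2 -2.53, SE 0.899, unadjusted p 0.0281). In both genes Cd31+ replicate 5 was highest and Cd31+ replicate 3 was close to the highest Cd146+ library. Without Cd31+ replicate 5 the log2 difference was -1.90 for Isg15 (unadjusted p 0.055) and -1.10 for Ifit1 (unadjusted p 0.0947), and without Cd146+ replicate 1 it was -2.99 (unadjusted p 0.0529) and -2.16 (unadjusted p 0.0855).

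Differences were smaller in Lgals3bp, a secreted glycoprotein gene, at 105, 104 and 195 CPM against 58.5, 52.6 and 80.5 CPM (log2 -1.08, SE 0.306, unadjusted p 0.00991), and the antiviral gene Samd9l, at 40.8, 36.8 and 75.7 CPM against 24.3, 28.2 and 27.3 CPM (log2 -0.94, SE 0.29, unadjusted p 0.0145). Without Cd31+ replicate 5 they were -0.71 and -0.55. The mean list level was 3.58, 3.32 and 5.19 in Cd31+ cells and 2.55, 3.03 and 3.38 in Cd146+ cells on the log2(CPM + 0.5) scale, so Cd31+ replicate 3 was below Cd146+ replicate 5. Without Cd31+ replicate 5 the median was -0.42 and 2 genes had an unadjusted p under 0.05, and without Cd146+ replicate 1 these were -1.02 and 2. The medians under the other constructs were -0.22 with the empty vector, -0.06 with nc shRNA and 0.78 with P16 shRNA, where 47 of 48 tested members were higher in Cd146+ cells. In antigen presentation 18 of 20 genes were lower (median -0.21), 3 of them with an unadjusted p under 0.05, against 2.22% of all genes: the peptide transporter gene Tap1 (-0.53), the class I gene H2-D1 (-0.56) and H2-T23 (-0.75). H2-T23 and H2-D1 belong to a multigene family whose reads the counting may have split.

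In the 4 libraries without Xist reads, a choice made after the data were seen, the median was -0.73 with 7 genes at an unadjusted p under 0.05 for the interferon list and -0.85 with 21 such genes for the mitosis list.

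The interferon-stimulated response element, an element of interferon-induced promoters bound by IRF factors, was searched on both strands as GAAA, any 2 bases and GAAA again. Since GAA ends TTTGAA and GCGGGAA and begins this motif, matches of different motifs can overlap. It was in 21 of 40 windows (52.5%) of the 34 interferon genes with a window, against 404 of 13427 windows (3.01%) of all tested genes and 3.44% of all windows. The following stretches show how single and repeated elements lie in Isg15, Ifit1 and the interferon-inducible GTPase gene Igtp (log2 -1.80, unadjusted p 0.034), in GRCm38.p6 and with the element in capitals (overlapping copies run together in Isg15, and in Ifit1 they lie on the opposite strand).
Isg15 (chr4:156200845-156200926, minus strand): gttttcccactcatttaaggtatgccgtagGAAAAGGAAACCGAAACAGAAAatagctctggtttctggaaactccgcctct
Ifit1 (chr19:34640755-34640843, plus strand): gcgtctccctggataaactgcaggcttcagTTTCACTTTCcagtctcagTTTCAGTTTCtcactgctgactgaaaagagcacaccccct
Igtp (chr11:58199492-58199561, plus strand): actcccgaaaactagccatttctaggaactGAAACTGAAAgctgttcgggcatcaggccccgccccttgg

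**Figure D3:**
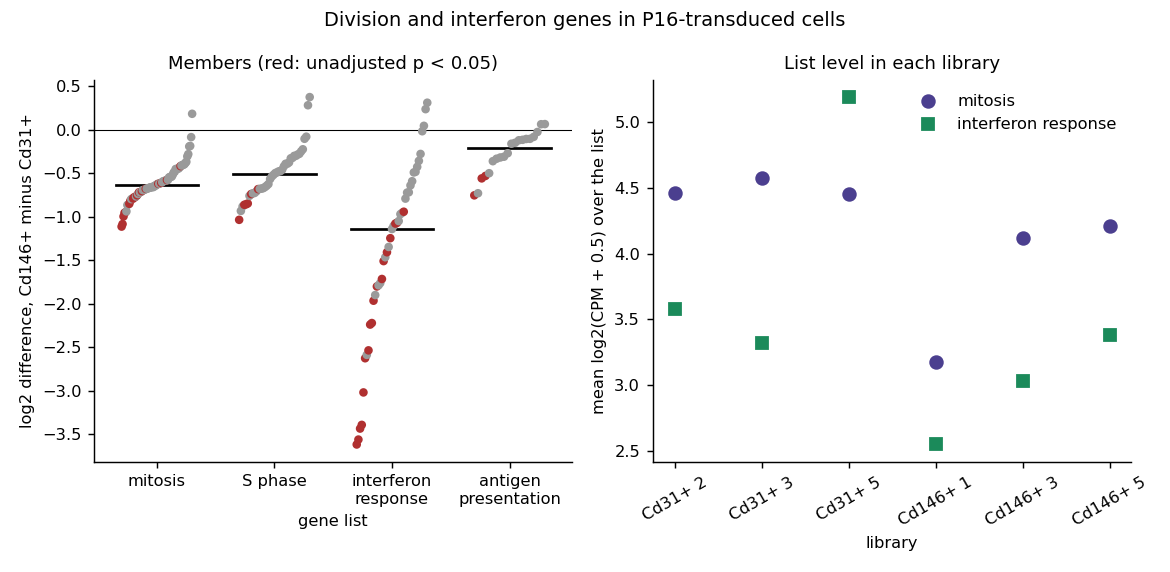
Left, log2 difference (Cd146+ minus Cd31+) of every tested member of 4 gene lists, with the median as a bar and members with an unadjusted p under 0.05 in red. Right, mean log2(CPM + 0.5) of the mitosis and interferon lists in each P16 library: the mitosis level is lowest in Cd146+ replicate 1 (3.17), and the interferon level highest in Cd31+ replicate 5 (5.19).

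Secreted and matrix genes were split in direction. In the senescence-associated secretion list 18 of 29 tested genes were higher and 11 lower (median 0.13), and 4 had an unadjusted p under 0.05, against 1.98% of all genes in that direction. Among inflammation and chemokine genes 14 were higher and 10 lower (median 0.24), with 3 at an unadjusted p under 0.05, Il6, Saa3 and Cxcl1, against 1.98% of all genes. Saa3, an acute phase gene, was at 0.208, 1.01 and 0.217 CPM in Cd31+ cells and at 2.69, 36.6 and 2.39 CPM in Cd146+ cells (log2 4.82, SE 1.4, unadjusted p 0.0121), and 1 library, Cd146+ replicate 3, raised its mean, since the log2 difference was 2.38 without it.

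Of 25 matrix proteases and inhibitors 19 were higher in Cd146+ cells (median 0.32), 4 of them with an unadjusted p under 0.05, against 1.98% of all genes, and 6 were lower. Mmp10, the stromelysin-2 gene, was at 0.208, 5.07 and 1.14 CPM in Cd31+ cells and at 30.4, 23.4 and 9.85 CPM in Cd146+ cells (log2 3.29, SE 1.03, unadjusted p 0.0167). Mmp3, the stromelysin-1 gene, was at 1.51, 14.8 and 2.23 CPM against 32, 191 and 17.3 CPM (log2 3.69, SE 1.27, unadjusted p 0.0253), and 1.99 without Cd146+ replicate 3. The lysosomal protease gene Ctsb was at 795, 914 and 722 CPM against 1208, 1403 and 993 CPM (log2 0.57, SE 0.21, unadjusted p 0.0307). In all 3 the populations were separate. Timp3, an inhibitor of these enzymes, had a log2 difference of 0.74 (SE 0.31, unadjusted p 0.0481), whereas Plaur, the urokinase receptor gene, had one of -0.70 (SE 0.229, unadjusted p 0.0181). With 1 library left out the unadjusted p stayed under 0.05 in 5 of 6 fits for Mmp10, 3 each for Mmp3 and Ctsb and 2 each for Timp3 and Plaur, and the log2 difference of Mmp10 was 4.97 without Cd31+ replicate 3.

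Of 29 matrix genes 17 were higher and 12 lower (median 0.09). The adhesion-modulating gene Tnc was at 121, 145 and 195 CPM in Cd31+ cells and at 249, 741 and 250 CPM in Cd146+ cells (log2 1.43, SE 0.48, unadjusted p 0.0221), and 0.70 without Cd146+ replicate 3. Nid2, a basement membrane linker gene, was at 54.8, 287 and 78.4 CPM against 916, 889 and 182 CPM (log2 2.24, SE 0.845, unadjusted p 0.0354), with overlapping groups. Among 35 angiogenesis genes, Vegfc and Fgf2 (log2 1.25, SE 0.428, unadjusted p 0.0237, and 0.69 without Cd146+ replicate 5) were higher and Pdgfa (-0.46) lower, and the median was -0.08. The list of 38 tested BMP, TGF-beta and Wnt genes had a median of 0.08, with Tgfbr3 (1.29, unadjusted p 0.0351) higher and Snai2 lower. The calls in these 2 lists stand against 1.98% of all genes called higher and 2.22% called lower, and 1 of 38 in each direction is near those shares. With 1 library left out the unadjusted p stayed under 0.05 in 2 of 6 fits for Tgfbr3 and 5 for Snai2.

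Cell type markers were compared by list, and no list had more than 2 members with an unadjusted p under 0.05. The median log2 difference was 0.03 over 23 pan-endothelial genes, with 12 higher and 11 lower. It was 0.52 without Cd146+ replicate 3, 0.65 without Cd31+ replicate 5, -0.35 without Cd31+ replicate 2 and -0.94, with 22 of 23 lower, without Cd146+ replicate 5. With the replicate block all 23 were lower and the median was -1.42. The median of 17 sinusoidal genes was 0.46 and turned to -0.71 without Cd146+ replicate 5, to -0.38 with the replicate block and to -0.63 in the 4 libraries without Xist reads. That of 17 large-vessel genes was -0.53, but 0.12 without Cd31+ replicate 5, and that of 14 mesothelial genes was 0.87, but 0.19 without Cd146+ replicate 5. The median of 20 stellate and fibroblast genes was 0.18, but -0.13 without Cd146+ replicate 5 and -0.03 without Cd31+ replicate 5, and that of 15 smooth muscle genes was -0.04, but 1.01 without Cd31+ replicate 5 and -0.86 without Cd146+ replicate 5. None of these lists thus had a median direction that every set of libraries shared, other than the mesothelial list. Its mean log2(CPM + 0.5) still overlapped, at 3.98, 4.88 and 4.82 in Cd31+ cells and 3.91, 4.74 and 5.34 in Cd146+ cells. Of its 14 genes 10 were higher and 4 lower, and the only 1 with an unadjusted p under 0.05, Upk1b, was lower. Within the stellate and fibroblast list Pdgfra, a growth factor receptor of mesenchymal cells, was at 24, 58 and 46.5 CPM in Cd31+ cells and at 110, 67.5 and 71.3 CPM in Cd146+ cells (log2 0.95, SE 0.355, unadjusted p 0.0329). The proteoglycan gene Dcn was at 97, 389 and 118 CPM against 315, 1641 and 436 CPM (log2 1.99, SE 0.822, unadjusted p 0.0492) and differed by 0.90 without Cd146+ replicate 3. The part that mesenchymal or mesothelial cells in the cultures had in the differences of matrix and protease genes was not tested.

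The genes highest on the list of those above in Cd146+ cells were of another kind. Of the 10 with the smallest p, 7 were mt-Co2, mt-Co3 and the predicted genes Gm11263, Gm28661, Gm28437, Gm12715 and Gm10925. mt-Co2, the mitochondrial gene of cytochrome oxidase subunit 2, was at 14.6, 21.9 and 11 CPM in Cd31+ cells and at 70.1, 56.8 and 51.5 CPM in Cd146+ cells (log2 1.91, SE 0.281, unadjusted p 0.000272). Gm12715 was at 27, 33.5 and 22.9 CPM against 71.3, 56.2 and 48.9 CPM (log2 1.08, SE 0.215, unadjusted p 0.00159). Outside the 10, mt-Atp6 had a like difference, at 10.2, 14.4 and 7.76 CPM against 30.2, 24.2 and 20.2 CPM (log2 1.20, SE 0.281, unadjusted p 0.00373). Other mitochondrial genes differed less, as mt-Co1 was at 5488, 5802 and 4736 CPM against 7824, 5330 and 4854 CPM (log2 0.17, unadjusted p 0.548) and mt-Cytb differed by 0.24. Processed pseudogenes, which are copies of other genes, were called higher more often than lower, 30 (5.08%) against 6 (1.02%) of 590, and 6 of 35 unprocessed pseudogenes (17.1%) were higher.

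Reads of such genes may be split between near-identical copies, and how the counting treated them is not given in the sources used here, so their values are uncertain. Over the 24 libraries mt-Co2 lay in separate ranges, 35.7 to 77.3 CPM in 13 libraries and 8.45 to 22.2 CPM in 11. The upper range held the 3 Cd146+ P16 libraries, 9 other Cd31+ libraries and 1 other Cd146+ library, and the lower range the 3 Cd31+ P16 libraries and 8 other Cd146+ libraries. Within the P16 libraries this split and the population cannot be told apart. Entpd4b, an apyrase gene with a close copy, was at 0.468, 1.01 and 0.543 CPM against 4.99, 2.27 and 5.07 CPM (log2 2.60, SE 0.512, unadjusted p 0.00151).

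**Figure D4:**
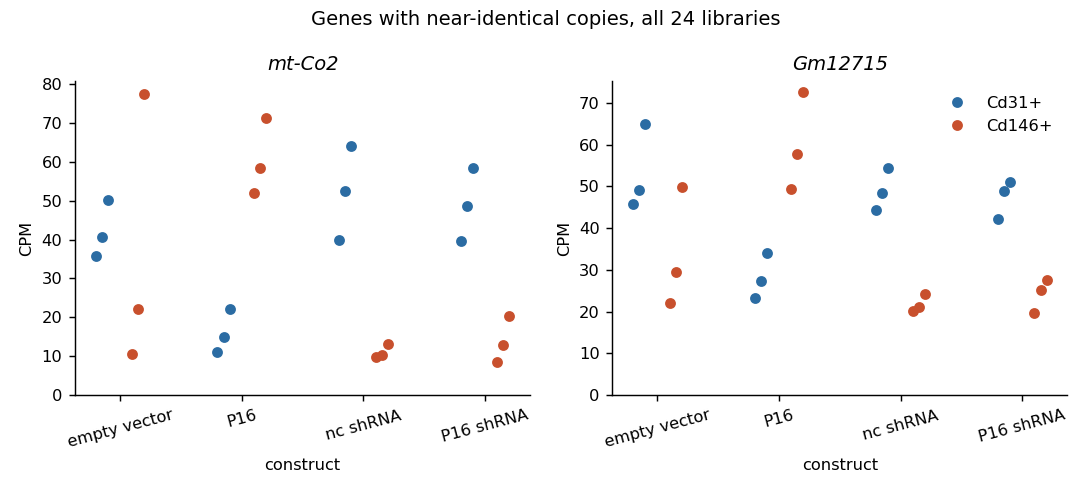
mt-Co2 and the predicted gene Gm12715 in CPM (linear y axes, from 0) in all 24 libraries by construct, with Cd31+ libraries in blue and Cd146+ libraries in red. The P16 libraries have the Cd146+ points on top, and both hairpins have the Cd31+ points on top.

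The same population comparison under the other constructs called 910 of 14873 genes (6.12%) with the empty vector, 1175 of 14400 (8.16%) with nc shRNA and 1439 of 14817 (9.71%) with P16 shRNA at an unadjusted p under 0.05, and 0 at an adjusted p under 0.05. Of the genes called with P16 and tested elsewhere, 432 of 596 (72.5%) had the same direction with the empty vector, against 55.9% of all genes. The share was 536 of 589 (91.0%) with nc shRNA, against 67.7%, and 415 of 589 (70.5%) with P16 shRNA, against 52.6%. The libraries of these comparisons differ, but libraries of a population with the same replicate number may share starting cells. The Cd146+ nc shRNA libraries carry the same numbers as the Cd146+ P16 libraries (1, 3 and 5), and the Cd146+ empty vector libraries 2, 4 and 5. Cd146+ replicate 3 held few Pecam1 counts under each construct that has it, 120 with P16, 242 with nc shRNA and 93 with P16 shRNA. A shared direction under another construct is therefore not an independent repeat. Among the pseudogenes higher with P16, 28 of 35 (80%) were lower in Cd146+ cells with both hairpins, against 25.5% of all genes opposite to P16 in both.

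Whether the population difference with P16 departed from that with the empty vector was tested as an interaction over 12 libraries. Of 15636 genes, 507 (3.24%) had an unadjusted p under 0.05, 274 with a larger and 233 with a smaller value with P16, and none had an adjusted p under 0.05 (smallest 0.993); DESeq2 gave 675 and 0. The median interaction was -0.50 over the mitosis list, with 71 of 74 genes negative and 2 at an unadjusted p under 0.05, and -1.16 over the interferon list, with 43 of 46 negative and 0 at that threshold. With the replicate number as a block within each population, a fit with 1 residual degree of freedom in which the Cd146+ side rests on replicate 5 alone, 322 genes had an unadjusted and 33 an adjusted p under 0.05. These 33 included mt-Co2, mt-Co3, mt-Atp6 and Gm12715, and also Isg15 (interaction -1.96, adjusted p 0.00205) and Ifit1 (-1.61, adjusted p 0.0361). Without the block the interaction of Isg15 was -2.30 (SE 1.57, unadjusted p 0.173) and that of Ifit1 was -1.75 (SE 1.3, unadjusted p 0.206).

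**Figure D5:**
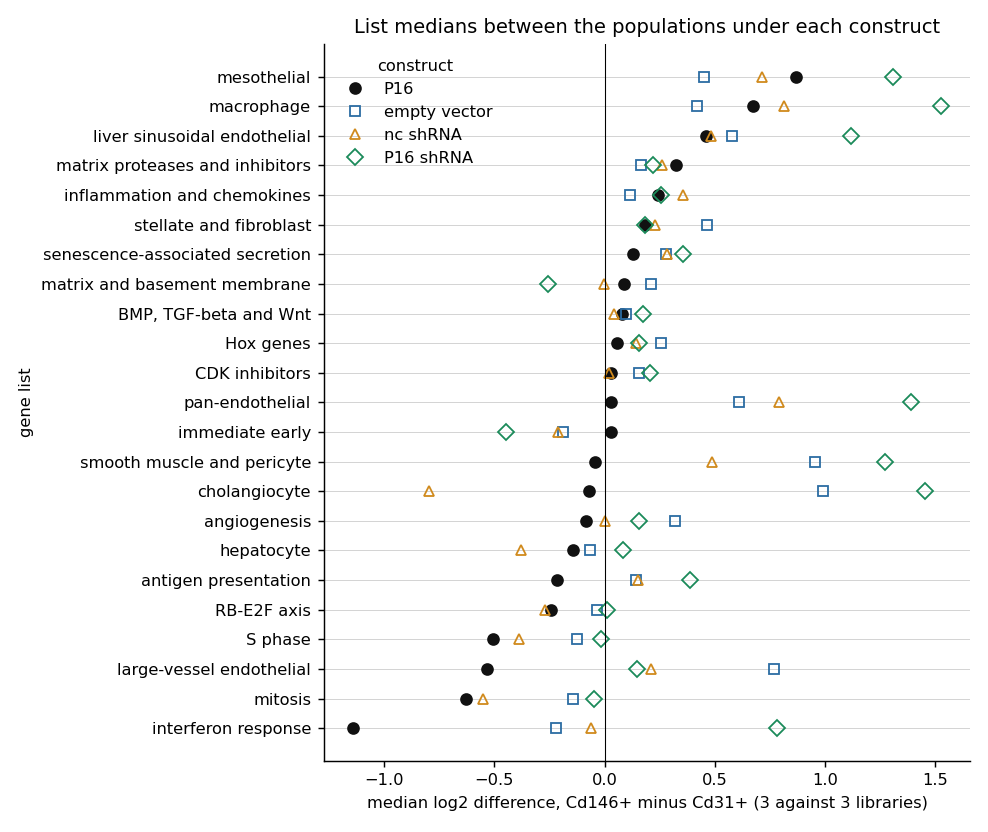
Median log2 difference (Cd146+ minus Cd31+, 3 against 3 libraries) of 23 gene lists under P16 (filled circles), empty vector (squares), nc shRNA (triangles) and P16 shRNA (diamonds). The interferon list runs from -1.14 with P16 to 0.78 with P16 shRNA, and under both its level overlaps between the populations. The mitosis median is below 0 under all 4 constructs.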

How the data were processed

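The authors deposited raw, unnormalized counts of reads per gene, and each of the 24 count columns matched 1 labelled sample. The authors also deposited FPKM values and, for each of their comparisons, log2 fold changes with p-values and adjusted p-values, which were not used here. Sequencing and analysis were done by Novogene; the submitters' processing notes list fastp and mm9, while the aligner and counter are not given in the sources used here, nor is the use of strand. Gene coordinates of the deposited table differ from those of the RefSeq GRCm38.p6 sequences, and the 2 were not combined.

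Counts were analysed in R 4.3.3 with edgeR 4.0.16: genes were filtered with filterByExpr, scaled with TMM and tested over the 6 libraries by the quasi-likelihood test with Benjamini-Hochberg adjustment at 0.05. CPM are normalized to TMM library sizes of the fit they come from. Each SE of edgeR's test is the absolute log2 difference divided by the square root of the F statistic. It is therefore not a measure of spread apart from the p-value. The interaction used 12 libraries. Code was tested on simulated data. Named genes were Cdkn2a, Pecam1, Mcam, the 10 genes per direction with the smallest p among non-overlapping genes of at least 1 CPM (filled by unadjusted p, since none passed the adjusted threshold), list members with an unadjusted p under 0.05 or the highest levels, genes the study names in its RNA results, the 5 genes per direction with the smallest p in the interaction, and markers. The members and lists were chosen with earlier results of these data known, and 20 further genes after their values were seen. Among these were F3, Cdh3, C3, Svep1, Gpnmb, Cdkn1a, Fn1, Kif23, Mki67, Top2a, Cdc20, Ifit1, mt-Co1, mt-Cytb, mt-Atp6 and Rpl19-ps11. DESeq2 1.42.0, limma 3.58.1, other filters and scalings, the replicate block, other library sets and leaving out each library were tried; a term for Xist reads, and the 4 libraries without them, were added after seeing the data. Within a population, P16 and empty vector libraries of the same number had correlated deviations from their group means (0.58 and 0.73 in Cd31+, 0.45 in Cd146+ cells), so the block is given beside the interaction. Pairs with different numbers ran from -0.50 to 0.46, the highest being Cd31+ P16 replicate 3 with Cd31+ empty vector replicate 1. The depth sets the floor of 3 counts, which covers counting error only. Not every gene named by these rules is reported here.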

Additional observations from a re-analysis of the deposited data

Results flagged for a closer look

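For 10 named genes all Cd146+ libraries were above all Cd31+ libraries with P16 and all were below them with both hairpins; the difference between these constructs was not tested. The log2 difference of mt-Co2 was 1.91 with P16, -2.21 with nc shRNA and -1.80 with P16 shRNA. In the same order it was 1.53, -1.68 and -1.38 for mt-Co3 and 1.20, -1.68 and -1.60 for mt-Atp6. The predicted genes had 2.26, -3.01 and -2.40 (Gm11263), 1.96, -2.37 and -1.93 (Gm28661), 1.32, -1.43 and -0.99 (Gm28437), 1.08, -1.16 and -0.96 (Gm12715), 1.30, -1.55 and -1.43 (Gm10925) and 1.42, -1.85 and -1.33 (Gm7206). Rpl19-ps11, a copy of a ribosomal protein gene, had 1.17, -1.54 and -1.31. With the empty vector the values ran from -1.60 for Gm7206 to 0.24 for Gm28437. Spearman correlations to mt-Co2 were 0.816 to 0.968 for the others apart from Gm7206, over 24 libraries that share groups and scaling, given as a description.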

How the results depend on the processing

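The number of genes with an adjusted p under 0.05 (0 in the comparison as reported) was 43 when every gene with at least 1 count was tested (1222 unadjusted) and 40 with DESeq2's Wald test, with 26 genes in both. It stayed at 0 with the count minimum, DESeq2 size factors, 12 or 24 libraries, the replicate block and both Xist alternatives. Unadjusted calls were 989 over 24 libraries, and 298 to 1278 without any 1 library, the lowest without Cd31+ replicate 2 and the highest without Cd146+ replicate 5. The replicate block over the 6 libraries gave 697 unadjusted calls; deviations of same-numbered libraries of the 2 populations correlated at 0.27 and 0.59, but only 2 pairs exist, so the numbers were not taken to pair them. Unadjusted calls split into 287 higher and 322 lower, and into 319 and 291 with DESeq2 size factors. In the interaction, the blocked fit gave 33 adjusted and 322 unadjusted calls, limma-voom with a random block over 24 libraries 19 adjusted, any-count testing 913 unadjusted, and leaving out 1 library 247 (Cd31+ empty vector replicate 1), 329 (Cd146+ empty vector replicate 4) to 1242 (Cd146+ P16 replicate 5) unadjusted. Among the single genes followed through the alternatives, directions turned for Pecam1 (-0.63 to 0.41 without 1 library, 0.20 without Cd31+ replicate 5), Mcam (-1.58 to 0.022), mt-Co1 (-0.043 with the block, -0.048 to 0.30 without 1 library), mt-Cytb (-0.0068 to 0.37) and Cdkn1a (0.00047 with voom, -0.41 to 0.13 without 1 library). The causes were not tested. Medians of 28 list and setting pairs moved by over 1 SD of the replicates, mostly of marker lists, and the directions of marker lists that turned are given with them; genes near 1 CPM are limited by depth.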
